A study of Mus musculus with 19 samples.

Results

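Transcripts of 9 genes of the hepatic glucocorticoid response and of metallothionein were followed in liver RNA of female Gramd1c+/+ and Gramd1c-/- mice fed low or high cholesterol. Taken by symbol from the 49315 genes counted, they were the glucocorticoid receptor gene Nr3c1, the glucocorticoid-responsive genes Fkbp5, Tsc22d3, Sgk1, Zbtb16, Ddit4 and Tat, and the metallothionein genes Mt1 and Mt2. All 9 were found, and all 9 passed the filter on low counts. The null allele, Gramd1c tm1a(KOMP)Wtsi, is a knockout-first insertion in all tissues, and the strain name also carries A tm1Brd on C57BL/6N. Both genotypes came from intercrosses of heterozygous mice, so the Gramd1c+/+ mice were littermate controls. From 8 weeks of age, 5 Gramd1c+/+ and 4 Gramd1c-/- mice were fed 0.02% (wt/wt) cholesterol, and 5 Gramd1c+/+ and 5 Gramd1c-/- mice were fed 0.2% cholesterol, for 4 weeks. All mice were anesthetized with ketamine and xylazine and perfused with saline before the liver was frozen. Most mice of the study were fasted for 4 h, and which of the 19 were not is not given in the sources used, so fasting may differ between mice. Each of the 19 libraries came from 1 mouse, and mice are numbered within their group.

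Glucocorticoids are adrenal steroids that enter hepatocytes and bind the glucocorticoid receptor, which FKBP5 and other chaperones hold in the cytoplasm. The bound receptor moves to the nucleus and activates genes of amino acid breakdown, glucose production and feedback, and in the liver its targets follow fasting, the time of day and stress. Metallothioneins are small cysteine-rich proteins that bind zinc and copper, and their genes answer to metals through the factor MTF1 as well as to glucocorticoids and inflammation.

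Total counts were 27149972 to 34669648 per mouse. Gramd1c was at 9.56 to 15.99 TPM (transcript counts scaled for gene length and library size) in the Gramd1c+/+ mice and at 1.07 to 3.61 TPM in the Gramd1c-/- mice, so no library contradicted its genotype. The tissue field of the labels names gonadal adipose tissue and the cell type field names liver. The 5 hepatocyte markers (Alb, Apoa1, Ttr, Serpina1c, Cps1) summed to 76019 to 125822 TPM in every mouse, and the 5 adipocyte markers (Adipoq, Plin1, Cidea, Lep, Retn) to 0 to 1.16 TPM in all mice but 1. That mouse, mouse 2 of the Gramd1c+/+ low-cholesterol group, had 18.5 TPM of the adipocyte markers and 629 TPM of 9 adrenal cortex markers such as Star and Cyp11a1, against 1.76 to 4.66 TPM in the other mice. Mouse 5 of the Gramd1c-/- high-cholesterol group scored 83.1 on the first principal component, against -46.7 to 38.4. Results for the 9 genes that rest on these 2 libraries are given with and without them. The other gene lists were compared with all 19 mice only.

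The sequences at the starts of the responsive genes set the frame for these values. RefSeq promoter windows of GRCm38.p6, reaching from 250 bases before to 50 bases after a transcript start, were matched for 7 of the 9 genes (14 windows, without Nr3c1 and Zbtb16). Mt1 and Mt2 are printed because they moved together most closely, and 1 Sgk1 window because it holds a full glucocorticoid response element. In the first pair of sequences the capitals mark cores of the metal response element, the site of MTF1, searched as TGCACNC and TGCGCNC on both strands. In the Sgk1 window they mark the glucocorticoid response element, searched as AGAACA and its reverse complement with 3 bases of any kind between them, which reads the same on both strands and was counted once.
Mt1, chr8:94178839-94179138, plus strand: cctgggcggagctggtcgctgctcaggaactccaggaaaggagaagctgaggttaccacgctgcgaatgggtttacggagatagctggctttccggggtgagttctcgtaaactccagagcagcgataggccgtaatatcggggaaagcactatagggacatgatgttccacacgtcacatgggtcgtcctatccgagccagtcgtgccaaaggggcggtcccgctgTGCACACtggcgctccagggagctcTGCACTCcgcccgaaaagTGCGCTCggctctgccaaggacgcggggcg
Mt2, chr8:94172368-94172667, plus strand: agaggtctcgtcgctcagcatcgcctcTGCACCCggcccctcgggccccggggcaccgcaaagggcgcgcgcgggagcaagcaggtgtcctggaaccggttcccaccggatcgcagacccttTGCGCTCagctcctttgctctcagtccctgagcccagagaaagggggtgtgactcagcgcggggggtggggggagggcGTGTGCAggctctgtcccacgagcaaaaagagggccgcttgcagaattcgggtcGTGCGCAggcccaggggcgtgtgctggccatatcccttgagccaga
Sgk1, chr10:21993640-21993939, plus strand: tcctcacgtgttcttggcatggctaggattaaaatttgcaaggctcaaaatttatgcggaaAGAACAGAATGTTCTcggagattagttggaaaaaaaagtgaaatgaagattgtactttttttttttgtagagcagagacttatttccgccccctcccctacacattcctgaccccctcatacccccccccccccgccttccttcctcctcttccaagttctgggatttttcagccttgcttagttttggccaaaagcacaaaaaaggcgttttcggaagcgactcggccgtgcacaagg
The Mt1 window held 3 metal response element cores and the Mt2 window 4, none of which overlapped. Of 32851 promoter windows, 25.7% held at least 1 core, 1.97% at least 3 and 0.517% at least 4. The Sgk1 element, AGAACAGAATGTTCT, lay at chr10:21993701-21993715, and only 3 of the 32851 windows (0.00913%) held such a palindrome. Its arm AGAACA alone was in 18.97% of all windows, and among the responsive genes outside that element in the same and in further windows of Sgk1 and in 1 window of Tsc22d3. No match in a window says only that these letters are not there.

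Per length of transcript, the 9 genes fell into high, middle and low levels. Over 19 mice Tat was at 962 ± 466 (SD) TPM, Mt2 at 839 ± 538 TPM and Mt1 at 774 ± 430 TPM, and these 3 ranges overlapped widely. Tsc22d3 (28.9 ± 14.3 TPM), Nr3c1 (28.3 ± 4.82 TPM), Fkbp5 (22.2 ± 10.8 TPM), Ddit4 (15.9 ± 16.3 TPM) and Sgk1 (10.04 ± 3.11 TPM) followed, each within the spread of its neighbour in this order. Zbtb16 was lowest at 4.71 ± 5.24 TPM, and its highest mice lay above the mean of Sgk1. Counts ranged from 64 for Zbtb16 in 1 mouse to 64478 for Tat in another. In bulk RNA a lower level can come from fewer cells of a type or from less RNA per cell, and these cannot be told apart.

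All 6 responsive genes and both metallothioneins varied more between mice of 1 group than most transcripts of their level. Among these Sgk1 did so least, and the receptor gene varied less than most transcripts of its level. The SD of log2 counts scaled to library size (CPM) within groups was 0.31 for the median gene of the 15016 tested, 1.48 for Zbtb16, 0.98 for Ddit4, 0.96 for Mt2, 0.79 for Fkbp5 and Mt1, 0.70 for Tat, 0.67 for Tsc22d3, 0.37 for Sgk1 and 0.18 for Nr3c1. Among genes within 0.5 log2 CPM of the same level, the SD of Zbtb16, Mt1, Mt2, Fkbp5, Tat, Tsc22d3 and Ddit4 stood at the percentiles 99.7, 99.6, 99.5, 99.2, 98.8, 98.6 and 98.2. Sgk1 stood at 86.7 and Nr3c1 at 26.4. The highest mouse exceeded the lowest 19.2-fold for Zbtb16, 13.1-fold for Ddit4, 10.3-fold for Mt2, 7.72-fold for Fkbp5, 7.16-fold for Mt1, 4.75-fold for Tat, 4.52-fold for Tsc22d3, 2.71-fold for Sgk1 and 1.82-fold for Nr3c1.

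**Figure D1:**
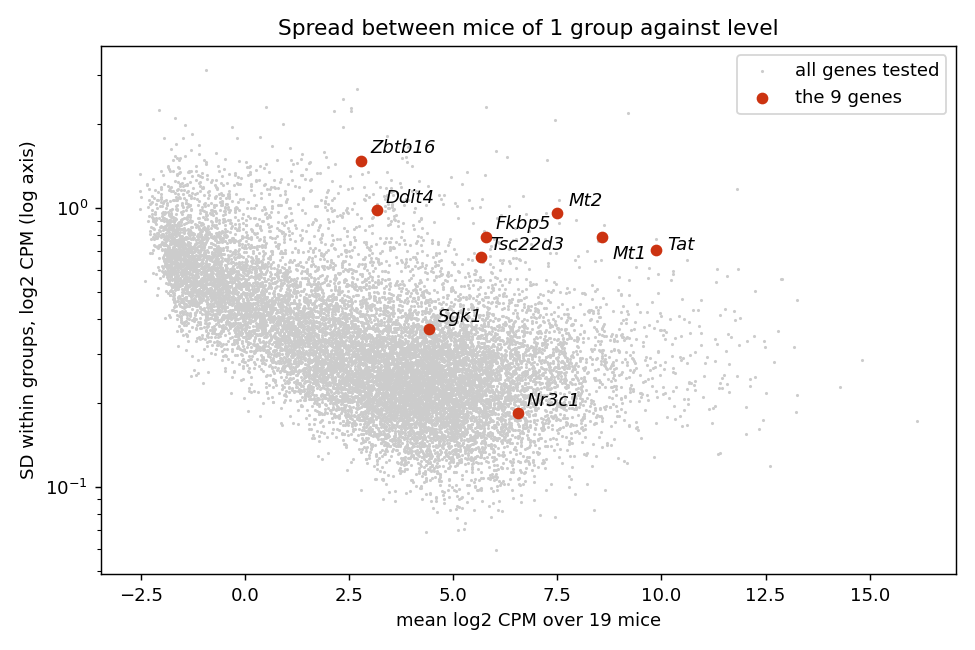
Standard deviation of log2 CPM within groups (vertical, log axis) against mean log2 CPM over 19 mice (horizontal) for the 15016 genes tested (grey) and the 9 genes (red). Zbtb16, Ddit4, Mt2, Mt1, Fkbp5, Tat and Tsc22d3 lie at the upper edge of the cloud and Nr3c1 lies in its lower part.

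Nr3c1 (ENSMUSG00000024431, chromosome 18), the receptor through which all of the responsive genes are reached, covered much the same range in the 4 groups. On low cholesterol it was at 26.8, 30.963, 35.002, 25.2 and 26.4 TPM in mice 1 to 5 of the Gramd1c+/+ group and at 27.7, 29.6, 29.4 and 34.9 TPM in mice 1 to 4 of the Gramd1c-/- group. The high-cholesterol groups had 30.3, 19.3, 20.3, 35.1 and 30.8 TPM for Gramd1c+/+ and 23.004, 24.4, 33.002, 32.5 and 24.1 TPM for Gramd1c-/- animals. The groups overlapped in every comparison. The log2 difference of Gramd1c-/- minus Gramd1c+/+ mice was 0.07 (95% interval -0.21 to 0.34) on low and -0.05 (-0.30 to 0.21) on high cholesterol, so on low cholesterol a fold change below 0.867 or above 1.26 was outside the interval.

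Fkbp5 (ENSMUSG00000024222, chr17:28399095-28517524, minus strand) encodes a co-chaperone that lowers the receptor's affinity for hormone and is itself induced by the receptor. Its low-cholesterol values were 39.8, 24.7, 31.5, 30.2 and 22.9 TPM for the Gramd1c+/+ genotype and 24.5, 22.4, 20.3 and 12.7 TPM for the Gramd1c-/- genotype. On the high-cholesterol diet the values were 13.1, 38.9, 5.37, 16.8 and 24.7 TPM for Gramd1c+/+ and 11.9, 5.47, 22.2, 41.5 and 12.8 TPM for Gramd1c-/- animals. On low cholesterol all 4 Gramd1c-/- mice lay below the Gramd1c+/+ median, with means of 19.96 TPM (SD 5.17, n = 4) and 29.8 TPM (SD 6.62, n = 5), and the ranges still met between 22.9 and 24.5 TPM. The two-sided exact permutation test of the means gave p = 0.0317, the smallest of 36 such tests (9 genes in 4 comparisons), where edgeR gave an unadjusted p of 0.224 for the same comparison. With 1 of the 9 mice left out the exact permutation p stayed below 0.05 without mouse 5 of the Gramd1c+/+ or mouse 1 of the Gramd1c-/- group, and without any 1 of the other 7 it was 0.0571 to 0.0714. Among these was mouse 2 of the Gramd1c+/+ group, the library with adrenal transcripts (p = 0.0571, exact). On high cholesterol each genotype held 1 of the 3 highest mice and 1 of the 2 lowest mice of all 19.

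Tsc22d3 (ENSMUSG00000031431, chrX:140539528-140600659, minus strand) encodes GILZ, a leucine zipper protein that carries part of the anti-inflammatory action of glucocorticoids. Mice on low cholesterol had 17.3, 29.6, 25.8, 30.2 and 62.1 TPM for the Gramd1c+/+ genotype and 19., 27.3, 26.4 and 19.2 TPM for the Gramd1c-/- genotype. Those on high cholesterol had 17.5, 53.4, 13.7, 53.2 and 16.4 TPM for Gramd1c+/+ and 20.4, 18.3, 20.6, 44.3 and 33.7 TPM for Gramd1c-/- animals. Mouse 5 of the Gramd1c+/+ low-cholesterol group and mice 2 and 4 of the Gramd1c+/+ high-cholesterol group were the 3 highest, and the other 3 mice of the latter group were among the 4 lowest of all 19.

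Ddit4 (ENSMUSG00000020108, chr10:59949675-59951770, minus strand) encodes REDD1, an inhibitor of mTORC1 that is induced by glucocorticoids, energy stress and low oxygen. Low-cholesterol mice had 7.42, 11.8, 29.2, 12.2 and 73.1 TPM for the Gramd1c+/+ genotype and 7.96, 11.5, 11.4 and 6.43 TPM for the Gramd1c-/- genotype. High-cholesterol mice had 6.31, 25.4, 6.36, 34.8 and 8.53 TPM for Gramd1c+/+ and 6.04, 7.60, 8.40, 21.3 and 5.57 TPM for Gramd1c-/- animals. The 4 highest mice were all Gramd1c+/+ (mice 5 and 3 on low and mice 4 and 2 on high cholesterol), followed by mouse 4 of the Gramd1c-/- high-cholesterol group. The other 14 mice lay between 5.57 and 12.2 TPM and held mice of every group, so the groups overlapped.

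Sgk1 (ENSMUSG00000019970, chr10:21882184-21999903, plus strand) encodes a kinase of the ion transport and survival response that glucocorticoids induce within hours. At low dietary cholesterol its values were 7.71, 12.031, 16.7, 11.3 and 14.7 TPM for the Gramd1c+/+ genotype and 6.72, 10.4, 10.3 and 7.07 TPM for the Gramd1c-/- genotype. At high dietary cholesterol they were 7.71, 9.76, 6.15, 13.6 and 9.44 TPM for Gramd1c+/+ and 8.09, 6.43, 11.7, 13.9 and 7.03 TPM for Gramd1c-/- animals. On low cholesterol 4 of 5 Gramd1c+/+ mice lay above every Gramd1c-/- mouse, and mouse 1 of the Gramd1c+/+ group lay among them (exact permutation test of the means, p = 0.0794). On high cholesterol the genotypes covered nearly the same range.

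Zbtb16 (ENSMUSG00000066687, chr9:48654297-48836222, minus strand) encodes the transcription factor PLZF and is among the genes that glucocorticoids induce most steeply in many tissues. Values on low cholesterol were 15.6, 4.09, 1.47, 1.78 and 4.22 TPM for the Gramd1c+/+ genotype and 1.94, 5.57, 0.962 and 3.10 TPM for the Gramd1c-/- genotype. Values on high cholesterol were 0.985, 16.3, 1.02, 4.78 and 2.35 TPM for Gramd1c+/+ and 1.10, 0.852, 6.13, 15.7 and 1.39 TPM for Gramd1c-/- animals. Mouse 1 of the Gramd1c+/+ low-cholesterol, mouse 2 of the Gramd1c+/+ high-cholesterol and mouse 4 of the Gramd1c-/- high-cholesterol group were at 15.6 to 16.3 TPM, and the other 16 mice were at 0.852 to 6.13 TPM. The same 3 mice were the 3 highest for Fkbp5.

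Tat (ENSMUSG00000001670, chr8:109990437-109999803, plus strand) encodes tyrosine aminotransferase, an enzyme of tyrosine breakdown in hepatocytes and a classic glucocorticoid target. With low cholesterol the mice had 947, 688, 1844, 743 and 1834 TPM for the Gramd1c+/+ genotype and 838, 909.9, 1061 and 529.7 TPM for the Gramd1c-/- genotype. With high cholesterol they had 867, 1854, 747, 1341 and 390.2 TPM for Gramd1c+/+ and 542, 556, 1008, 1189.6 and 397 TPM for Gramd1c-/- animals. The 4 highest mice were again Gramd1c+/+, mice 3 and 5 on low and mice 2 and 4 on high cholesterol, while the lowest of all was also a Gramd1c+/+ mouse, so the genotypes overlapped on both diets.

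Ranked over all 19 mice, the 6 responsive genes did not spread their high values evenly. Mouse 2 of the Gramd1c+/+ high-cholesterol group was among the 4 highest for 5 of the 6 genes. Mice 3 and 5 of the Gramd1c+/+ low-cholesterol, mouse 4 of the Gramd1c+/+ high-cholesterol and mouse 4 of the Gramd1c-/- high-cholesterol group were so for 4 each. Mice 1 and 3 of the Gramd1c+/+ and mice 1 and 2 of the Gramd1c-/- high-cholesterol group were above the median for 0 of the 6. Mouse 4 of the Gramd1c-/- high-cholesterol group also had the most transcript of the 6 macrophage markers (758 TPM, against 146 to 398 TPM in the other mice), whose part in its values was not tested.

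Mt1 (ENSMUSG00000031765, chr8:94179082-94180327, plus strand) and Mt2 (ENSMUSG00000031762, chr8:94172664-94173568, plus strand) are neighbours and encode the main liver metallothioneins. On low cholesterol Mt1 was at 468, 380.2, 549, 792 and 977 TPM in Gramd1c+/+ and at 1041, 310.1, 338 and 262 TPM in Gramd1c-/- mice. High cholesterol gave 663, 1572, 1878, 497 and 699.7 TPM of Mt1 in Gramd1c+/+ and 1269, 944, 741, 637 and 680.0 TPM in Gramd1c-/- mice. Mice 2 to 4 of the Gramd1c-/- low-cholesterol group were the 3 lowest of all 19, while mouse 1 of that group was the fourth highest. On low cholesterol Mt2 was at 395, 377, 971, 716 and 1159 TPM in Gramd1c+/+ and at 1256, 200.2, 251.8 and 212 TPM in Gramd1c-/- mice. High cholesterol gave 756, 2063, 2006, 460.0 and 775 TPM of Mt2 in Gramd1c+/+ and 1273, 805, 806, 965 and 493 TPM in Gramd1c-/- mice. The order was nearly that of Mt1, with the same 3 mice lowest and mice 2 and 3 of the Gramd1c+/+ high-cholesterol group highest. The longest run of identical bases between Mt1 and Mt2 transcripts was 20, against reads of 150 bases from each of 2 ends. Exons of the antisense gene Gm45774 overlap Mt2 (median 173 counts), and without the strand setting of the counting, reads of the pair cannot be told apart. Fkbp5 is overlapped in an intron by Gm22146 (median 18 counts).

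**Figure D2:**
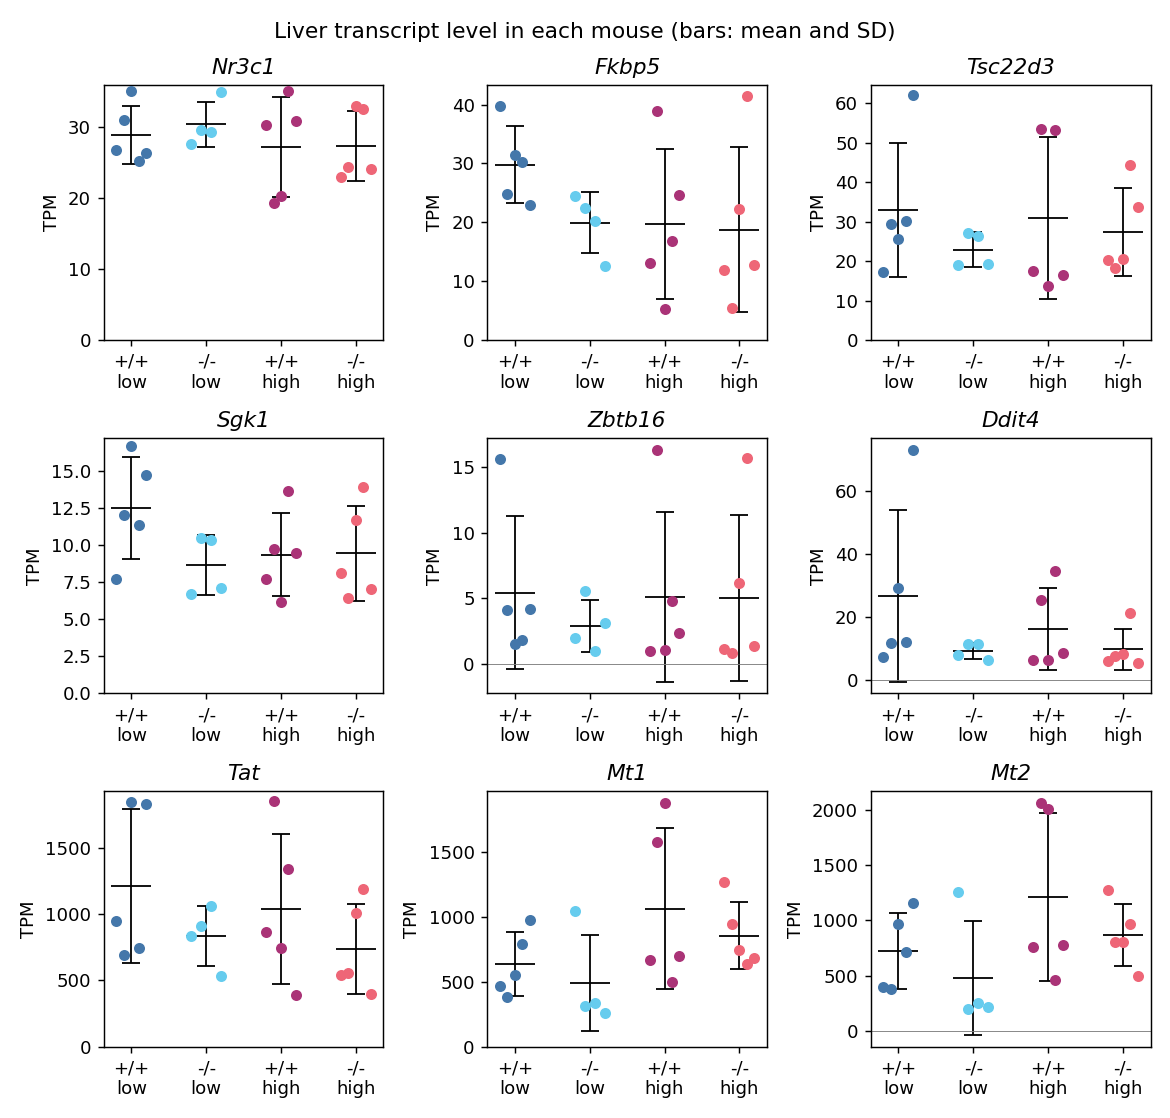
TPM of each of the 9 genes (vertical) in every mouse (points) of the 4 groups (horizontal, genotype over diet), with bars for the mean and the SD. Single mice stand above the rest of their group for Zbtb16, Ddit4, Tsc22d3 and, in Gramd1c-/- mice on low cholesterol, for Mt1 and Mt2, and every pair of groups overlaps.

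To ask whether loss of Gramd1c altered these genes, genotypes were compared on each diet with the quasi-likelihood test of edgeR, in 1 model of all 19 mice, with p-values adjusted by Benjamini-Hochberg over 15016 genes. On low cholesterol 0 of the 9 genes passed an adjusted p of 0.05 (smallest 0.999), where 0.00666% of all genes passed. An unadjusted p below 0.05 was reached by 2, Ddit4 and Sgk1, and by 2.66% of all genes. Ddit4 averaged 9.31 TPM (SD 2.52, n = 4) without Gramd1c and 26.8 TPM (SD 27.2, n = 5) with it, a log2 difference of -1.55 (95% interval -2.85 to -0.24), and of -0.72 without mouse 5 of the Gramd1c+/+ group. Sgk1 differed by -0.54 (-1.02 to -0.06) on the log2 scale, with all 4 Gramd1c-/- mice below the Gramd1c+/+ median. The 6 responsive genes all had negative log2 differences, from -0.52 for Tsc22d3 to -1.55 for Ddit4, and the median over the 9 genes was -0.56. Over all genes 49.7% of the differences were positive. Since these genes move together between mice, they do not count as 9 separate observations.

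Mouse 1 of the Gramd1c-/- low-cholesterol group decided the metallothionein values. With it the log2 difference between genotypes on low cholesterol was -0.37 (-1.37 to 0.63) for Mt1 and -0.58 (-1.80 to 0.63) for Mt2. Without it the log2 differences were -1.09 and -1.75 (adjusted p = 0.998 for both, edgeR). Exact permutation of the TPM means returned p = 0.0357 for both genes, where with all mice it had given 0.460 and 0.381. With that mouse out the genotypes no longer overlapped, and 0.0357 is the smallest p this test can then give. The mouse stood out by its own values of these genes, so these p-values are a description and no test of genotype. That mouse also had the highest sum of 5 lymphocyte markers, 24.7 TPM against 8.53 to 16.1 TPM in the other mice, whose part in the values was not tested.

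On high cholesterol all 9 fitted log2 differences between the genotypes were negative, with a median of -0.22, and 0 genes passed in edgeR, where 0.00666% of all genes passed. None of the 9 had an unadjusted p below 0.05, beside 2.42% of all genes. In mean TPM the signs of Nr3c1 (27.4 in Gramd1c-/- and 27.2 in Gramd1c+/+ mice) and Sgk1 (9.42 and 9.34) were the opposite. Over all genes 52.2% of the fitted differences were positive. Tat, at 739 ± 341 TPM in Gramd1c-/- and 1040.0 ± 568 TPM in Gramd1c+/+ mice (SD, n = 5 each), differed by -0.62 (-1.43 to 0.19) and Ddit4 by -0.79 (-1.99 to 0.40) on the log2 scale. For Nr3c1 (-0.05), Sgk1 (-0.06), Fkbp5 (-0.19), Tsc22d3 (-0.22) and Zbtb16 (-0.21) the sign turned when single mice were left out, as did that of Mt1 and Mt2 with sample weights in voom (0.19 and 0.15), and 5 to 9 of the 9 genes remained negative over the 10 mice left out in turn. Without mouse 2 of the Gramd1c+/+ group, Fkbp5 was at 0.30, Tsc22d3 at 0.16 and Zbtb16 at 1.10. On low cholesterol 7 or 8 genes were negative with any 1 mouse left out. Averaged over the diets, Ddit4 differed by -1.17 (-2.05 to -0.29) with an adjusted p of 0.999, 1 of the 9 genes had an unadjusted p below 0.05, beside 2.98% of all genes, and 0 passed, where 0.00666% of all genes did.

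The diets were compared within each genotype to ask whether dietary cholesterol altered the same genes. In Gramd1c+/+ mice 0 of the 9 genes passed in edgeR (smallest adjusted p = 0.663), where 0.44% of all genes passed, and in Gramd1c-/- mice also 0 (smallest adjusted p = 0.511), where 0.326% passed. In neither comparison did any of the 9 have an unadjusted p below 0.05, beside 7.93% and 11.4% of all genes. The genotype and diet comparisons share groups of mice, so their values are not independent. In Gramd1c+/+ mice the 6 responsive genes and Nr3c1 had log2 differences of high minus low cholesterol between -0.74 (Ddit4) and -0.04 (Zbtb16), and in Gramd1c-/- mice between -0.25 (Tat) and 0.70 (Zbtb16).

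The metallothioneins were the only members with positive differences for diet in both genotypes. In Gramd1c+/+ mice Mt1 was at 1062 ± 619.6 TPM on high and 633 ± 246 TPM on low cholesterol (SD, n = 5 each), and the log2 difference was 0.86 (-0.08 to 1.80). Mt2 was at 1212 ± 762 and 724 ± 346 TPM, with a log2 difference of 0.85 (-0.29 to 1.99). In both cases 4 of the 5 mice on high cholesterol lay above the median of the low-cholesterol group.

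In Gramd1c-/- mice the log2 differences were 0.78 (-0.23 to 1.79) for Mt1 and 0.80 (-0.42 to 2.03) for Mt2, and all 5 mice on high cholesterol lay above the median of the low-cholesterol group. Averaged over the genotypes, the diet difference was 0.82 (0.13 to 1.51) for Mt1 and 0.83 (-0.01 to 1.67) for Mt2, with adjusted p of 0.205 and 0.278 (edgeR), 0 of the 9 genes passed and 1, Mt1, had an unadjusted p below 0.05, where 1.3% of all genes passed and 18.3% had an unadjusted p below 0.05. Without mouse 1 of the Gramd1c-/- low-cholesterol group, the diet difference in Gramd1c-/- mice was 1.51 for Mt1 and 1.97 for Mt2 (adjusted p = 0.438 and 0.294). For the genotype by diet interaction the log2 estimates lay between -0.11 (Nr3c1) and 0.75 (Ddit4), 0 genes of the 9 passed or had an unadjusted p below 0.05, and 0% of all genes passed (250 of 15016 had an unadjusted p below 0.05).

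Across these 7 comparisons DESeq2 and voom also called 0 of the 9 genes. Over all genes both called 0 for the interaction and 1 in each genotype comparison. For diet averaged over the genotypes DESeq2 called 604 of 17473 genes and voom 259 of 15016. No gene separated 2 groups without overlap in any of the 36 comparisons of TPM, where 1.73% (genotype, low cholesterol), 0.246% (genotype, high cholesterol), 1.72% (diet, Gramd1c+/+) and 3.46% (diet, Gramd1c-/-) of all tested genes did. The intervals are wide for the genes that vary most: the interval of the genotype difference on low cholesterol ran from -2.88 to 0.99 for Zbtb16 on the log2 scale.

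**Figure D3:**
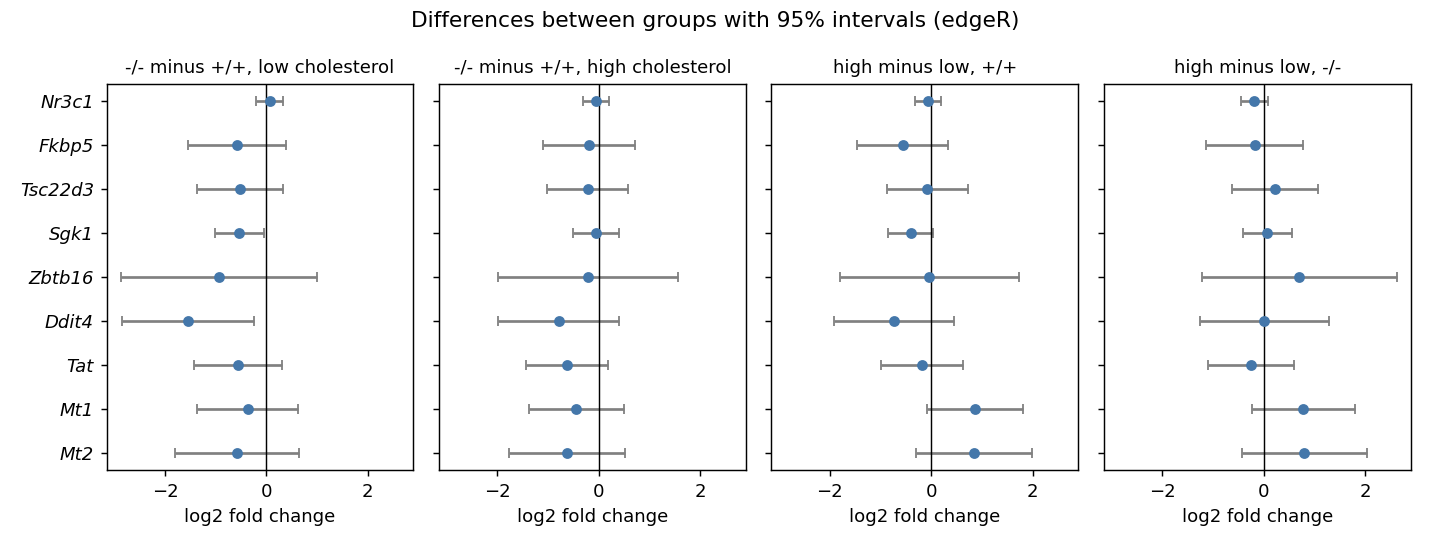
Log2 fold change (horizontal) with its 95% interval from edgeR for the 9 genes (vertical) in the 4 comparisons named above the panels. On low cholesterol the intervals of Ddit4 and Sgk1 exclude 0 before adjustment, and the metallothioneins lie to the right of 0 for diet in both genotypes.

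The differences between mice of 1 group were shared among the genes. With group means subtracted from log2 CPM, 28 of the 36 pairs of genes correlated positively over 19 mice, and 7 pairs passed an adjusted p of 0.05 (permutation within groups, Benjamini-Hochberg over 36 pairs). Of these, 5 joined Ddit4, Tsc22d3, Sgk1 and Tat. Among these genes Tsc22d3 with Tat did not pass (r = 0.591, adjusted permutation p = 0.114).

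Tsc22d3 and Ddit4 had r = 0.841 and rho = 0.779 (adjusted permutation p = 0.00666), and r = 0.760 without the 2 mice farthest from the median of Tsc22d3. Sgk1 and Ddit4 had r = 0.811 and rho = 0.749 (adjusted permutation p = 0.00558), and r = 0.786 without the 2 farthest mice. Ddit4 and Tat had r = 0.762 and rho = 0.747 (adjusted permutation p = 0.00666), and r = 0.772 without the 2 farthest mice. On low cholesterol r was 0.889, 0.803 and 0.817 for these 3 pairs and on high cholesterol 0.849, 0.822 and 0.723. The numbers in the files fall in 2 runs, whose meaning the labels do not give, and within the first (11 mice) r was 0.809, 0.791 and 0.855 and within the second (8 mice) 0.862, 0.901 and 0.983. Ddit4 with Tat did not pass without mouse 2 of the Gramd1c+/+ high-cholesterol group.

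Sgk1 and Tat (r = 0.657, rho = 0.674, adjusted permutation p = 0.0332) and Tsc22d3 and Sgk1 (r = 0.634, rho = 0.632, adjusted permutation p = 0.0339) were looser. Without the 2 farthest mice r was 0.558 and 0.621, within the first run 0.674 and 0.585, and within the second 0.966 and 0.724. The first did not pass without any 1 of 5 mice and the second without any 1 of 8 mice, and both were lost without mouse 4 of the Gramd1c-/- low-cholesterol, mouse 2 of the Gramd1c+/+ high-cholesterol or mouse 4 of the Gramd1c-/- high-cholesterol group.

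Over all 19 mice, Fkbp5 and Zbtb16 formed a pair of their own by r = 0.698 (adjusted permutation p = 0.0332). The pair did not pass by rank, with rho = 0.595 (adjusted permutation p = 0.0963), and had r = 0.659 without the 2 farthest mice. Within the runs r was 0.477 and 0.866, and on low cholesterol 0.163 against 0.865 on high cholesterol, a difference that was not tested. Without any 1 of the 3 mice at 15.6 to 16.3 TPM of Zbtb16 the pair did not pass, and the same held for 3 other mice. Between this pair and Tsc22d3, Ddit4, Sgk1 and Tat, r over all mice lay between 0.252 and 0.485 and no pair passed. That separation was not seen on high cholesterol alone. There Zbtb16 had r = 0.869 with Sgk1, 0.814 with Ddit4, 0.711 with Tat and 0.696 with Tsc22d3, against -0.517, -0.293, -0.193 and -0.259 on low cholesterol. Fkbp5 had r between 0.415 and 0.793 with the same genes on high and between -0.273 and 0.392 on low cholesterol. The runs differed as widely as the diets. Within the second run Zbtb16 had r = 0.929 with Sgk1, 0.868 with Ddit4, 0.917 with Tat and 0.844 with Tsc22d3. Within the first run these were -0.241, -0.309, 0.016 and -0.119. Fkbp5 had r between 0.587 and 0.779 with the same genes within the second and between -0.445 and 0.112 within the first run. None of these differences between diets or runs was tested.

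Mt1 and Mt2 had the highest correlation of all, r = 0.933 and rho = 0.889 (adjusted permutation p = 0.0036), with r = 0.894 without the 2 farthest mice and 0.946 and 0.833 within the runs. Between the metallothioneins and the 6 responsive genes r ran from -0.176 (Zbtb16 and Mt1) to 0.419 (Tat and Mt2), and none passed. Between Nr3c1 and the responsive genes r over all mice ran from -0.201 to 0.325, with none passing. The runs differed. Within the first, r was 0.797 with Sgk1, 0.766 with Ddit4 and 0.795 with Tat, and between -0.242 and 0.280 with Fkbp5, Tsc22d3 and Zbtb16. Within the second, it was 0.001, -0.190 and -0.118 with Sgk1, Ddit4 and Tat, and between -0.484 and -0.209 with Fkbp5, Tsc22d3 and Zbtb16. This difference was not tested. The relation of Nr3c1 to Mt1 was negative, r = -0.609 and rho = -0.681, with adjusted permutation p of 0.0734 for r and 0.0431 for rho. For r it was 0.00691 on log2(TPM + 1), and 0.0272 on log2 CPM without the 2 libraries that stand apart. That relation was -0.0125 within the first run and -0.799 within the second.

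How many pairs passed depended on 2 mice. Without mouse 2 of the Gramd1c+/+ high-cholesterol group 3 pairs passed, and without mouse 4 of the Gramd1c-/- high-cholesterol group 4 pairs passed, against 5 to 8 without any other single mouse and 9 without the 2 libraries that stand apart. Mt1 with Mt2, Tsc22d3 with Ddit4, and Sgk1 with Ddit4 passed with every mouse left out, and over these fits their r lay at 0.907 to 0.954, 0.792 to 0.904 and 0.777 to 0.850. Total counts and the summed markers of hepatocytes, macrophages, stellate cells, bile duct, lymphocytes and adrenal cortex were related to the 9 genes in the same way. By r and by rho, 0 of these 63 relations passed. By r the smallest adjusted permutation p was 0.295. It belonged to total counts with Ddit4 (r = 0.495, rho = 0.412, and r = 0.197 without the 2 farthest mice) and to macrophage markers with Nr3c1 (r = 0.629, rho = 0.563, and r = 0.433). By rho the smallest adjusted permutation p was 0.249. It belonged to bile duct markers with Ddit4 (rho = -0.665, r = -0.420, and r = -0.733 without the 2 farthest mice) and to macrophage markers with Mt1 (rho = -0.619, r = -0.522, and r = -0.505).

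**Figure D4:**
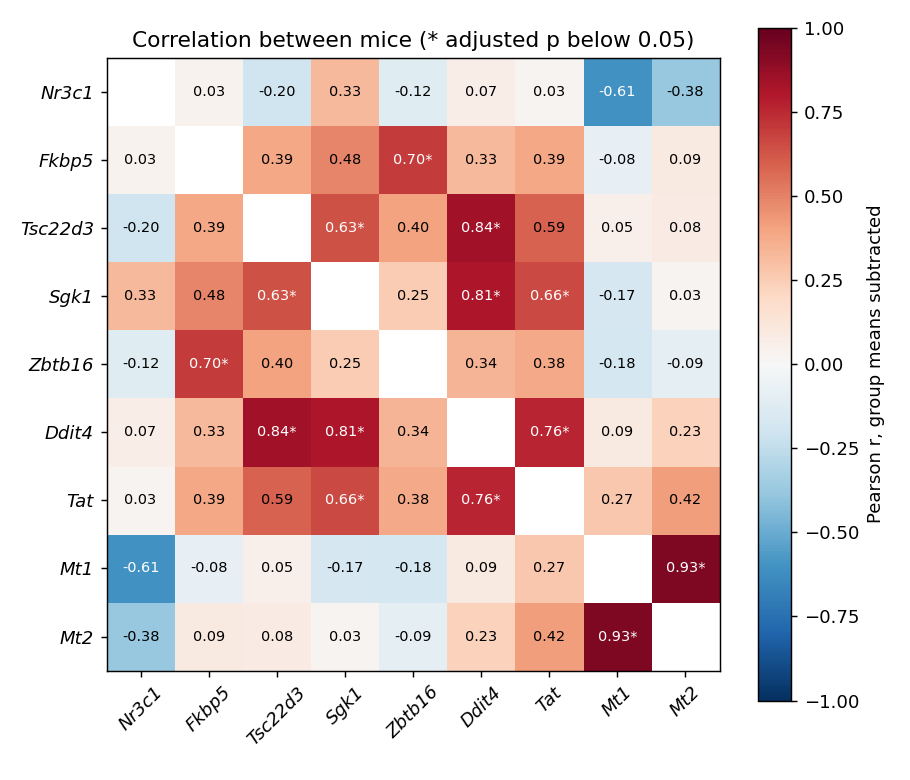
Pearson correlation between each pair of the 9 genes over 19 mice after subtraction of group means (color and number in each cell), with an asterisk at an adjusted permutation p below 0.05. Over all 19 mice Ddit4, Tsc22d3, Sgk1 and Tat form a block, in which Tsc22d3 with Tat has no asterisk. Fkbp5 with Zbtb16 form a second and Mt1 with Mt2 another.

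**Figure D5:**
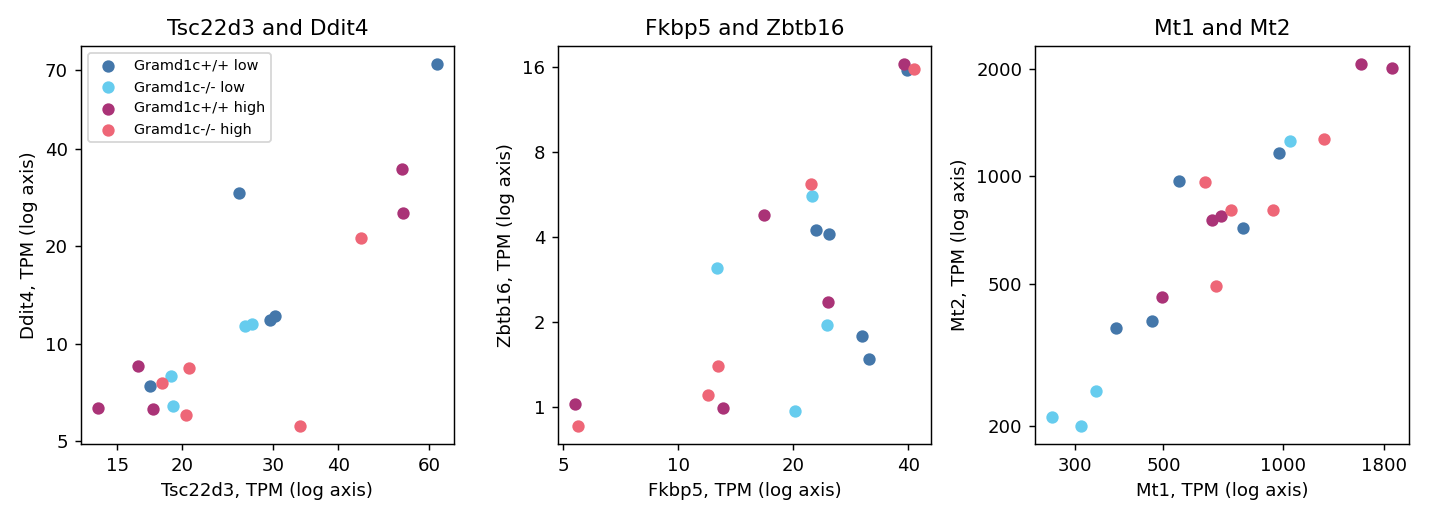
TPM of 3 pairs of genes in each mouse (points, colored by group, both axes logarithmic). Of the 5 highest Ddit4 mice 4 are at 44.3 to 62.1 TPM of Tsc22d3, 3 mice from 3 groups are at 15.6 to 16.3 TPM of Zbtb16 and 38.9 to 41.5 TPM of Fkbp5, and Mt1 and Mt2 keep nearly the same order.

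The genes most like each member were read off as the 3 highest correlations over 19 mice with group means subtracted, given as a description with no test. Tsc22d3 was most like Ddit4 (r = 0.841), Arrdc2 (0.816) and Slc25a51 (0.816). Snai2 (0.874) and Tsc22d3 were among the 3 genes most like Ddit4. Sgk1 was most like Rasgef1b (0.879), Ddit4 (0.811) and Tob2 (0.808).

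Tat was most like Mknk2 (0.907), Shb (0.904) and Pck1 (0.899), the last of which encodes the gluconeogenic enzyme phosphoenolpyruvate carboxykinase. Fkbp5 was most like St3gal5 (0.894), Baiap2l1 (0.849) and Mlxip (0.846), and Zbtb16 was most like Tacc2 (0.928), Cnnm4 (0.855) and Med1 (0.852). Mt1 was most like Mt2 (0.933), Thnsl2 (0.901) and Angptl6 (0.886). Mt2 was most like Mt1, Adk (0.908) and Limd2 (0.899), and Nr3c1 was most like Vps8 (0.855), Ckap5 (0.829) and Numb (0.826).

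A list of 28 other glucocorticoid-responsive genes, among them Per1, Bcl6, Gadd45b and Igfbp1, was set beside the members, and 27 passed the filter. None was called by edgeR in any of the 7 comparisons, and 0 to 4 of the 27 had an unadjusted p below 0.05, as did 1.66% to 18.3% of all genes. On low cholesterol 21 of 27 and on high cholesterol 24 of 27 had negative differences for genotype, with medians of -0.22 and -0.21 on the log2 scale. The positive share was 22.2% and 11.1%, beside 49.7% and 52.2% of all genes. Many genes of this list move with the members between mice, so they do not count as 27 separate observations. These sign counts were not repeated with single mice left out. For diet 14 of 27 were positive in each genotype. The smallest unadjusted p in a simple comparison belonged to Bcl6, Gadd45b and Igfbp1. Bcl6, a repressor of lipid metabolism in the liver, had a log2 difference of 1.02 (0.31 to 1.74) between the genotypes on low cholesterol, with an adjusted p of 0.999 in edgeR. The 4 Gramd1c-/- mice spread widely, at 5.02 TPM (SD 4.23, range 2.26 to 11.3). Their range overlapped that of the Gramd1c+/+ mice, at 2.42 TPM (SD 0.325, range 2.04 to 2.88, n = 5). For diet in Gramd1c+/+ mice Gadd45b was at 0.71 (0.17 to 1.24), with an adjusted p of 0.467 in edgeR. In the same comparison Igfbp1 was at -0.62 (-1.18 to -0.05), with an adjusted p of 0.589.

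The list was also set beside the members from mouse to mouse. Of the 27 genes, 11 had r above 0.5 with Tsc22d3 and 11 with Fkbp5 (40.7% each), 10 each with Ddit4 and Zbtb16 (37.0% each), and 8 each with Sgk1 and Tat (29.6% each). Over all genes tested these shares were 1.98%, 4.16%, 2.32%, 4.82%, 2.63% and 5.54%, in the order Tsc22d3, Fkbp5, Ddit4, Zbtb16, Sgk1 and Tat. With Mt1 and Mt2 the share was 7.41% each (2 of 27), beside 12.3% and 6.91% of all genes, and with Nr3c1 it was 3.70% (1 of 27), beside 9.88%. The genes of the list were chosen with earlier results of these data known, so the shares are a description.

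Genes that supply the hormone or hold its receptor, a list of 14 such as H6pd, the mineralocorticoid receptor gene Nr3c2 and the coactivator gene Ncoa2, gave 0 calls in edgeR, with 0 to 3 genes at an unadjusted p below 0.05 in each comparison. The smallest unadjusted p belonged to Ncoa2 (log2 difference -0.46, -0.86 to -0.06, for diet in Gramd1c-/- mice, adjusted p = 0.390), Nr3c2 (0.42, -0.004 to 0.85, for diet in Gramd1c+/+ mice, adjusted p = 0.625) and H6pd (-0.35, -0.72 to 0.02, for diet in Gramd1c-/- mice, adjusted p = 0.450). Genotype differences were positive for 8 of 14 on low and 5 of 14 on high cholesterol.

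Of 16 genes of metal and zinc handling, 14 passed the filter and 0 were called in edgeR, with 0 to 4 at an unadjusted p below 0.05 in each comparison. For diet in Gramd1c-/- mice all 14 had negative differences, with a median of -0.19 on the log2 scale beside 0.02 over all genes, and Mt1 and Mt2 were positive in the same comparison. In Gramd1c+/+ mice 10 of 14 were negative. The 14 genes were measured in the same mice, so they do not count as separate observations. The smallest unadjusted p belonged to the zinc exporter gene Slc30a1, itself a target of MTF1, at -0.48 (-0.80 to -0.15, adjusted p = 0.315), the copper importer gene Slc31a1 at -0.31 (-0.57 to -0.05, adjusted p = 0.387) and the copper transporter gene Atp7b at -0.54 (-1.01 to -0.06, adjusted p = 0.399), all for diet in Gramd1c-/- mice. From mouse to mouse 1 of the 14 had r above 0.5 and 4 had r below -0.5 with Mt1, beside 12.3% and 10.7% of all genes, with a median r of -0.39.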

How the data were processed

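For each mouse the authors deposited a table of unnormalized counts by Ensembl gene. STAR 2.5.2b and GRCm38 come from the submitters' processing notes, and no source used here gives the counting tool or its strand setting. Symbols were matched for 48970 of 49315 genes, and TPM was computed from counts and the gene lengths in the tables. The test was the quasi-likelihood F test of edgeR 4.0.16 (R 4.3.3) with TMM, filterByExpr at a minimum count of 10 and 1 coefficient per group. It was checked on data simulated with the same spread between mice for every gene. All of the 9 genes except Nr3c1 and Sgk1 vary more than that. The check therefore does not show how often a change in those genes would be called. Single genes were tested on TPM by two-sided exact permutation of the means (doubling the smaller tail), unadjusted. Correlations used log2 CPM (prior count 2) without group means and 100000 shuffles within groups. Named genes were all 9 members, per list the called genes or the 3 with the smallest p in a simple comparison, and the 3 most similar genes per member, of which 1 is not reported here. Members and lists were chosen with earlier results of these data known. Alternatives were RLE, DESeq2 1.42.0, voom (limma 3.58.1) with sample weights, other filters, the replicate number as a block, a term for the 2 runs, only the groups compared, the 2 libraries that stand apart left out, and each mouse left out. The replicate numbers did not pair the mice. Precision is limited by the spread between mice.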

Additional observations from a re-analysis of the deposited data

Results flagged for a closer look

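In 6 of the 36 sets of values (9 genes in 4 groups), 1 mouse lay far from the rest of its group by Dixon's ratio of its gap to the range of the group. Chance singles out about 1 in 20 such sets only where the values are normally distributed. The ratio was taken on untransformed TPM, and each of the 6 mice singled out was the highest of its group. Whether 6 of 36 exceeds chance on this scale was not tested. The sets are also not independent, since genes that move together single out the same mouse. In Gramd1c+/+ mice on low cholesterol, Tsc22d3 was at 62.1 TPM in mouse 5 (others 17.3 to 30.2 TPM) and Zbtb16 was at 15.6 TPM in mouse 1 (others 1.47 to 4.22 TPM). In Gramd1c+/+ mice on high cholesterol, Zbtb16 was at 16.3 TPM in mouse 2 (others 0.985 to 4.78 TPM). In Gramd1c-/- mice on high cholesterol, Ddit4 was at 21.3 TPM in mouse 4 (others 5.57 to 8.40 TPM), the library with the most macrophage transcript. In Gramd1c-/- mice on low cholesterol, mouse 1 was at 1041 TPM of Mt1 (others 262 to 338 TPM) and at 1256 TPM of Mt2 (others 200.2 to 251.8 TPM), and it lay above the median of the 19 mice for 1 of the 6 responsive genes.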

How the results depend on the processing

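With every alternative that was run, 0 of the 9 genes were called in each of the 7 comparisons, also with the replicate number as a block, where the count was 0 throughout. Over all genes, 12792 to 28997 tested, these fits called 0 for the interaction, 1 in each genotype comparison and 34 to 604 in the diet comparisons. The numbers did not pair the mice: the mean correlation of residuals was -0.0689 over 27 pairs of mice with the same number and 0.0173 over 108 pairs with different numbers. Signs were less stable than calls. With the block the log2 difference of Zbtb16 for genotype on high cholesterol was 0.28 and that of Ddit4 for diet in Gramd1c-/- mice was -0.22, and with the term for the runs the latter was -0.13. With sample weights in voom Ddit4 was at -0.086 for that comparison, Mt1 and Mt2 were at 0.19 and 0.15 for genotype on high cholesterol, and Nr3c1 at 0.0083 for diet in Gramd1c+/+ mice. Without the 2 libraries that stand apart Sgk1 and Zbtb16 were at 0.0028 and 0.014 for genotype on high cholesterol. The cause of these changes was not tested.

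With 1 mouse left out at a time, signs turned for genotype on low cholesterol for Zbtb16 (-1.48 to 0.026). For genotype on high cholesterol they turned for Nr3c1 (-0.11 to 0.0047), Fkbp5 (-0.68 to 0.30), Tsc22d3 (-0.42 to 0.16), Sgk1 (-0.22 to 0.048) and Zbtb16 (-1.30 to 1.10). For diet in Gramd1c+/+ mice they turned for Nr3c1 (-0.12 to 0.037), Tsc22d3 (-0.45 to 0.30), Zbtb16 (-1.35 to 0.93), Ddit4 (-1.10 to 0.086) and Tat (-0.57 to 0.043). For diet in Gramd1c-/- mice they turned for Fkbp5 (-0.66 to 0.073), Sgk1 (-0.083 to 0.19), Zbtb16 (-0.39 to 1.23) and Ddit4 (-0.45 to 0.14). The number of exact tests of TPM with p below 0.05 was 1 of 36 with all mice and on log2(TPM + 1), 0 without the 2 libraries, and 0 to 5 with 1 mouse left out, the 5 without mouse 1 of the Gramd1c-/- low-cholesterol group. The number of pairs that passed was 7 with all mice and also 7 on log2(TPM + 1), where Sgk1 with Tat was lost (adjusted permutation p = 0.0526) and Nr3c1 with Mt1 was gained (0.00691), and it was 3 to 8 with 1 mouse left out.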

Other observations

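Lists of genes that share the timing or stress inputs of the glucocorticoid response gave few calls. Of 14 fasting genes, Fasn, the fatty acid synthase of lipogenesis, fell on high cholesterol: averaged over the genotypes its log2 difference was -1.20 (95% interval -1.65 to -0.76, adjusted p = 0.00388, edgeR), and in Gramd1c-/- mice the adjusted p was 0.0454. The other 13 genes of this list were not called, and 10 of 14 had negative differences for diet averaged over the genotypes. From mouse to mouse, 6 of the 14 (Tat, itself on the list, among them for Ddit4) had r above 0.5 with Ddit4 and with Zbtb16 (42.9% each), beside 2.32% and 4.82% of all genes, and 0 of 14 did with Mt1 or Mt2. Among them Pck1, Igfbp1 and Sds for Ddit4, and G6pc, Igfbp1, Pdk4, Angptl4 and Sds for Zbtb16, are also on the list of other glucocorticoid-responsive genes. These shares are therefore not separate from those of that list.

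None of 15 acute phase genes was called by edgeR, although 7 had an unadjusted p below 0.05 for diet averaged over the genotypes, beside 18.3% of all genes (smallest adjusted p = 0.0934). Of these, Saa1, Saa2 and Orm2 had positive and Fga, Fgb, Fgg and Steap4 negative differences. These 7 were named after their values were seen, and Saa1 and Saa2 are near-identical genes between which reads may be split. For genotype averaged over the diets, 4 of the 15 had an unadjusted p below 0.05, beside 2.98% of all genes (smallest adjusted p = 0.999, edgeR). Over the 4 simple comparisons, the smallest unadjusted p belonged to the serum amyloid gene Saa2, at a log2 difference of 0.92 (0.17 to 1.66) for genotype on high cholesterol with an adjusted p of 0.99996, to the fibrinogen gene Fga at -0.52 (-0.96 to -0.08, adjusted p = 0.556) for diet in Gramd1c+/+ mice, and to the orosomucoid gene Orm2 at 0.72 (0.10 to 1.33, adjusted p = 0.388) for diet in Gramd1c-/- mice. None of 15 clock genes was called by edgeR either (0 or 1 at an unadjusted p below 0.05 in each comparison), with Arntl at -0.91 (-1.96 to 0.13, adjusted p = 0.671) for diet in Gramd1c+/+ mice, and Hlf at -0.28 (-0.63 to 0.06, adjusted p = 0.495) and Per3 at 0.89 (-0.27 to 2.04, adjusted p = 0.518) for diet in Gramd1c-/- mice. Of the clock genes 4 had r above 0.5 with Ddit4 and 3 with Tsc22d3, beside 2.32% and 1.98% of all genes, and 1, Npas2, was below -0.5 with each (r = -0.580 and -0.510). Per1, which is also on the list of other glucocorticoid-responsive genes, was among those above 0.5 for both.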
